A study of Bombyx mori with 9 samples.

Results

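LAT51 and MO204 are strains of the mulberry silkworm Bombyx mori, and their silk glands were compared as cool against hot: LAT51 larvae were reared at the cooler Philippine site CAR, MO204 larvae at the hotter site TCMO. The comparison takes the 3 LAT51 and 3 MO204 libraries of the 9 libraries in the count table, by their strain labels. The third strain, DMMMSU119 from TCMO, was left out. Each library is polyadenylated RNA from the whole silk gland of 1 larva, taken on day 3 of the fifth instar, with no treatment or allele beyond strain and site. No other strain from CAR was analysed here, so strain, site and the handling at each station cannot be told apart. The labels give no sex and no rearing batch. Of the 16674 genes in the table, 7245 had enough counts to be tested. Levels are given as CPM, each count scaled to the same library total, and values per larva follow the order LAT51-1, LAT51-2, LAT51-4 and MO204-1, MO204-3, MO204-4.

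The silk gland is a pair of tubular glands that fill the body cavity of the last-instar larva. Its posterior part makes the fibroin core of the silk thread (fibroin heavy chain, fibroin light chain and P25), and its middle part makes the sericins that glue the threads together. Heat-shocked insect cells make small heat shock proteins and Hsp70, chaperones that bind unfolded proteins, while detoxification enzymes and protease inhibitors vary widely between insect strains.

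Depth lay between 4527847 and 11641130 counts per library. Profiles of log2 CPM correlated at 0.913 to 0.941 within LAT51, at 0.906 to 0.959 within MO204 and at 0.843 to 0.902 between the strains, and the first principal component, with 45.2% of the variance, separated the strains. MO204-4 stood apart: 459 genes had 50 or more counts in it and at most 3 counts in each of MO204-1 and MO204-3. They held 1.70% of its counts, 8 of them were tested, and none of those was called by edgeR or limma (2 at an unadjusted p under 0.05). The silk protein genes, which define the gland, took 12.3% to 19.6% of all counts in every library. In whole glands, fewer cells of a type and less RNA per cell cannot be told apart.

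Differentially expressed genes (DEGs) were taken at an edgeR adjusted p-value (p_adj) under 0.1. There were 351, which is 4.84% of the genes tested, with 176 upregulated and 175 downregulated in LAT51 (2.43% and 2.42%). The log2 fold change (log2FC, LAT51 over MO204) passed 1 in absolute value for 344 of them. Among DEGs its median was 2.05 for upregulated and -2.78 for downregulated genes, and it passed 3 for 45 upregulated and 78 downregulated ones. Of the 7245 genes tested, 1024 had an unadjusted edgeR p under 0.05, the level to set beside such counts in the gene lists below. Of the DEGs, 350 did not overlap between the strains, against 19.3% of all genes tested (10.4% with LAT51 above and 8.89% with LAT51 below). In 19 upregulated genes no MO204 library had more than 3 counts, and in 27 downregulated genes no LAT51 library had. A fold change against such a strain is given as a lower bound, with 3 counts in each of its libraries, and with these bounds the medians were 2.05 and -2.67. Some DEGs had nearly the same count in every library as another DEG, for example LOC119630946 and LOC692357. Reads may be shared between such genes, so the numbers of DEGs may hold them more than once. With 3 larvae per strain, 91 DEGs (46 up, 45 down) were called again with each library left out in turn. Without LAT51-2 only 124 genes were called, without MO204-3 172, without LAT51-4 225, without MO204-1 230 and without LAT51-1 238, whereas 336 were called without MO204-4.

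**Figure D1:**
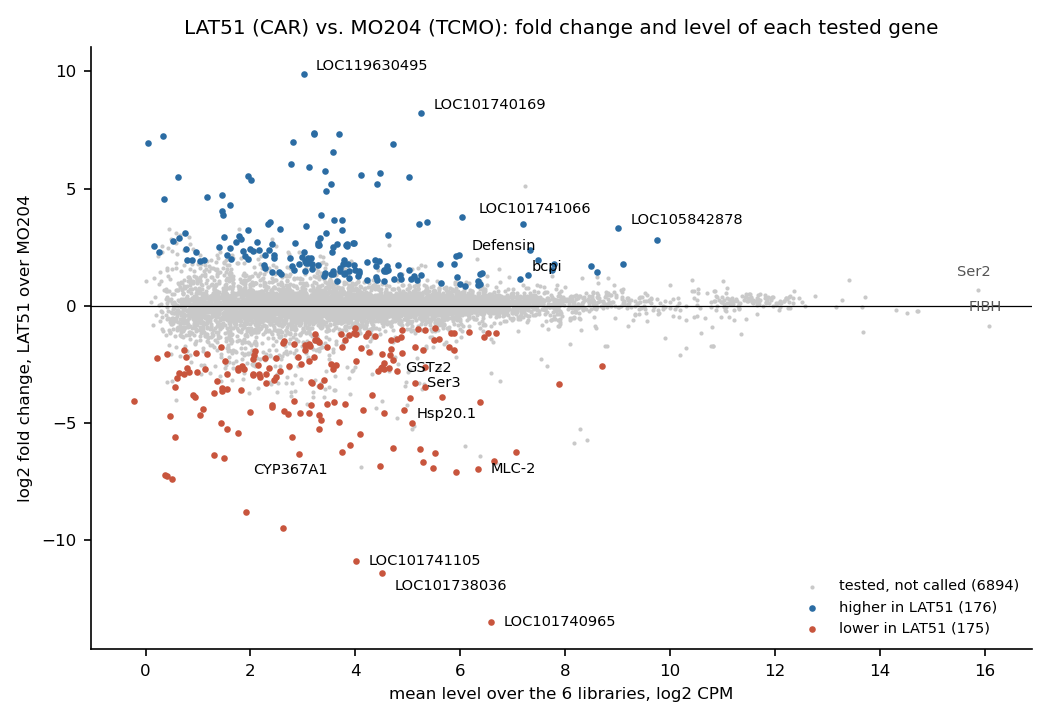
Log2FC of LAT51 over MO204 (vertical axis) against the mean level over the 6 libraries in log2 CPM (horizontal axis) for the 7245 tested genes. The 176 upregulated DEGs are blue, the 175 downregulated DEGs red and the other genes grey. The fitted fold changes reach 9.87 for LOC119630495 and -13.46 for LOC101740965, while the fibroin heavy chain FIBH and sericin Ser2, at the right end, are grey.

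The clearest upregulated genes were present in every LAT51 larva at levels far above any MO204 larva. LOC101740169, of the tetraspanin family of membrane proteins by the study's annotation, had 39.9, 103 and 84.5 CPM in the LAT51 larvae, against 0.194, 0 and 0.463 CPM in the MO204 larvae. No MO204 library had more than 3 counts, so it was at least 159-fold higher in LAT51 (p_adj = 0.00143). LOC101741066 had 119.7, 101 and 144 CPM in the LAT51 larvae, against 6.41, 9.61 and 10.3 CPM in the MO204 larvae (log2FC 3.80, SE 0.28, p_adj = 0.00143). Its lowest LAT51 larva was many times its highest MO204 larva. LOC101739033, annotated as a zinc finger protein, had 29.9, 46.4 and 54.9 CPM in the LAT51 larvae, against 0.875, 0.894 and 0.771 CPM in the MO204 larvae (log2FC 5.66, SE 0.36, p_adj = 0.00143). LOC101736515 had 72.1, 69 and 87.8 CPM in the LAT51 larvae, against 4.57, 6.71 and 7.86 CPM in the MO204 larvae (log2FC 3.59, SE 0.28, p_adj = 0.00143). In both genes the strains were far apart and the larvae of a strain close together. LOC101741524, annotated as synaptic vesicle glycoprotein 2C, a transporter-like membrane protein, had 81.1, 28.2 and 46.7 CPM in the LAT51 larvae, against 0.486, 0.671 and 0.154 CPM in the MO204 larvae (log2FC 6.88, SE 0.59, p_adj = 0.00207). LOC732895 had 22.8, 17.2 and 27 CPM in the LAT51 larvae, against 1.55, 1.79 and 1.85 CPM in the MO204 larvae (log2FC 3.68, SE 0.32, p_adj = 0.00215), and LOC101740432 had 55.9, 45.5 and 30.1 CPM in the LAT51 larvae, against 5.64, 6.03 and 4.32 CPM in the MO204 larvae (log2FC 3.04, SE 0.31, p_adj = 0.00349). All of these stayed DEGs with any 1 library left out.

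Other genes were at or near 0 in MO204. LOC119629954, annotated as a protein like ZBED4 with a BED zinc finger, a domain also found in proteins derived from transposons, had 126, 127 and 198 counts in the LAT51 larvae, against 2, 1 and 0 counts in the MO204 larvae. That is at least 53.8-fold higher in LAT51 (p_adj = 0.00665). The uncharacterized LOC105842393 had 14.5, 16.2 and 40.4 CPM in the LAT51 larvae, against 0.292, 0.224 and 0.154 CPM in the MO204 larvae, at least 49.9-fold higher (p_adj = 0.00313). The uncharacterized LOC119630495 had 46, 148 and 120 counts in the LAT51 larvae, against 0, 0 and 0 counts in the MO204 larvae. It was at least 34-fold higher in LAT51 (p_adj = 0.0169), with 6.46, 13.1 and 28.9 CPM in the LAT51 larvae. In CPM, LAT51-4 was the highest larva for all 3 of these genes. Without LAT51-4 the bounds were 30.9-fold for LOC119629954, 32.7-fold for LOC105842393 and 20.9-fold for LOC119630495. LOC119629803 and LOC119629818 had 85, 97 and 145 counts and 86, 95 and 145 counts in the LAT51 larvae, and at most 1 count in any MO204 larva. They are neighbours with nearly the same count in every library, so reads may be shared between them, and they may not be independent DEGs. They were at least 38.9-fold higher in LAT51, and at least 21.9-fold without LAT51-4. LOC101744852 had 8.57, 23.6 and 9.87 CPM in the LAT51 larvae, against 0.0972, 0 and 0.154 CPM in the MO204 larvae, at least 29.5-fold higher (p_adj = 0.00416), with LAT51-2 highest and a bound of 19.7-fold without it. The calls on these genes held with each library left out.

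LOC105842878, annotated as peroxidase-like, a haem enzyme that uses peroxide, had 1115, 919 and 783 CPM in the LAT51 larvae, against 61.7, 60.3 and 164 CPM in the MO204 larvae (log2FC 3.30, SE 0.45, p_adj = 0.0106). All 3 LAT51 larvae were at several times the highest MO204 larva, which was MO204-4 (without it, log2FC 3.94, p_adj = 0.00226). The sugar gene 6pgl, named for 6-phosphogluconolactonase of the pentose phosphate pathway, had 36.5, 19.2 and 19 CPM in the LAT51 larvae, against 2.14, 2.24 and 1.54 CPM in the MO204 larvae (log2FC 3.65, SE 0.39, p_adj = 0.00416). It was 1 of 13 tested genes of glycolysis, trehalose and pentose phosphate metabolism, of which 1 rose, 0 fell and the median log2FC was 0.04, beside -0.00 over all genes tested. The sucrase gene Suc1 had 3073, 3097 and 2976 CPM in the LAT51 larvae, against 2073, 609 and 4142 CPM in the MO204 larvae and overlapped (p_adj = 0.841).

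The downregulated gene with the largest bound, LOC101740965, is annotated as a myrosinase and lies beside LOC101741105, also annotated as a myrosinase. Myrosinases hydrolyse glucosinolates, sulfur glycosides of plants. LOC101740965 had 0, 0 and 0 counts in the LAT51 larvae, against 1523, 659 and 1850 counts in the MO204 larvae. In MO204 that is 148, 147 and 285 CPM, and the gene was at least 412-fold lower in LAT51 (p_adj = 0.00143). LOC101741105 had 0, 0 and 0 counts in the LAT51 larvae, against 272, 105 and 302 counts in the MO204 larvae. It was at least 68.4-fold lower (p_adj = 0.00313), and MO204-4 was the highest larva for both genes. The flavoprotein gene LOC105842960, annotated as oxygen-dependent choline dehydrogenase-like, had 7.31, 5.51 and 6.5 CPM in the LAT51 larvae, against 64.4, 69.96 and 147 CPM in the MO204 larvae (log2FC -3.87, SE 0.39, p_adj = 0.0034). Its neighbour LOC101736392 had 34, 44.4 and 51 CPM in the LAT51 larvae, against 308, 196 and 792 CPM in the MO204 larvae (log2FC -3.32, SE 0.53, p_adj = 0.0197), again with MO204-4 highest in both. The call on LOC101736392 was lost without LAT51-2 (log2FC -3.34, p_adj = 0.105), and without MO204-4 its values were log2FC -2.55, p_adj = 0.00727.

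LOC101739591, annotated as the transient receptor potential channel pyrexia, a cation channel that opens at high temperature in Drosophila, had 1.12, 1.07 and 2.89 CPM in the LAT51 larvae, against 36.1, 29.1 and 35.8 CPM in the MO204 larvae (log2FC -4.42, SE 0.41, p_adj = 0.00273). LOC101741132 had 1.41, 1.69 and 3.37 CPM in the LAT51 larvae, against 62.4, 58.3 and 75.1 CPM in the MO204 larvae (log2FC -4.99, SE 0.37, p_adj = 0.00143), and LOC101743834 had 0.703, 0.622 and 0.481 CPM in the LAT51 larvae, against 14.3, 14.1 and 16 CPM in the MO204 larvae (log2FC -4.55, SE 0.36, p_adj = 0.00143). In these genes each MO204 larva was at least 10 times each LAT51 larva, and the MO204 larvae were close to each other. LOC100101163 had 1.55, 1.86 and 1.68 CPM in the LAT51 larvae, against 17.5, 16.8 and 14.2 CPM in the MO204 larvae (log2FC -3.23, SE 0.32, p_adj = 0.00313). All stayed DEGs with any library left out.

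**Figure D2:**
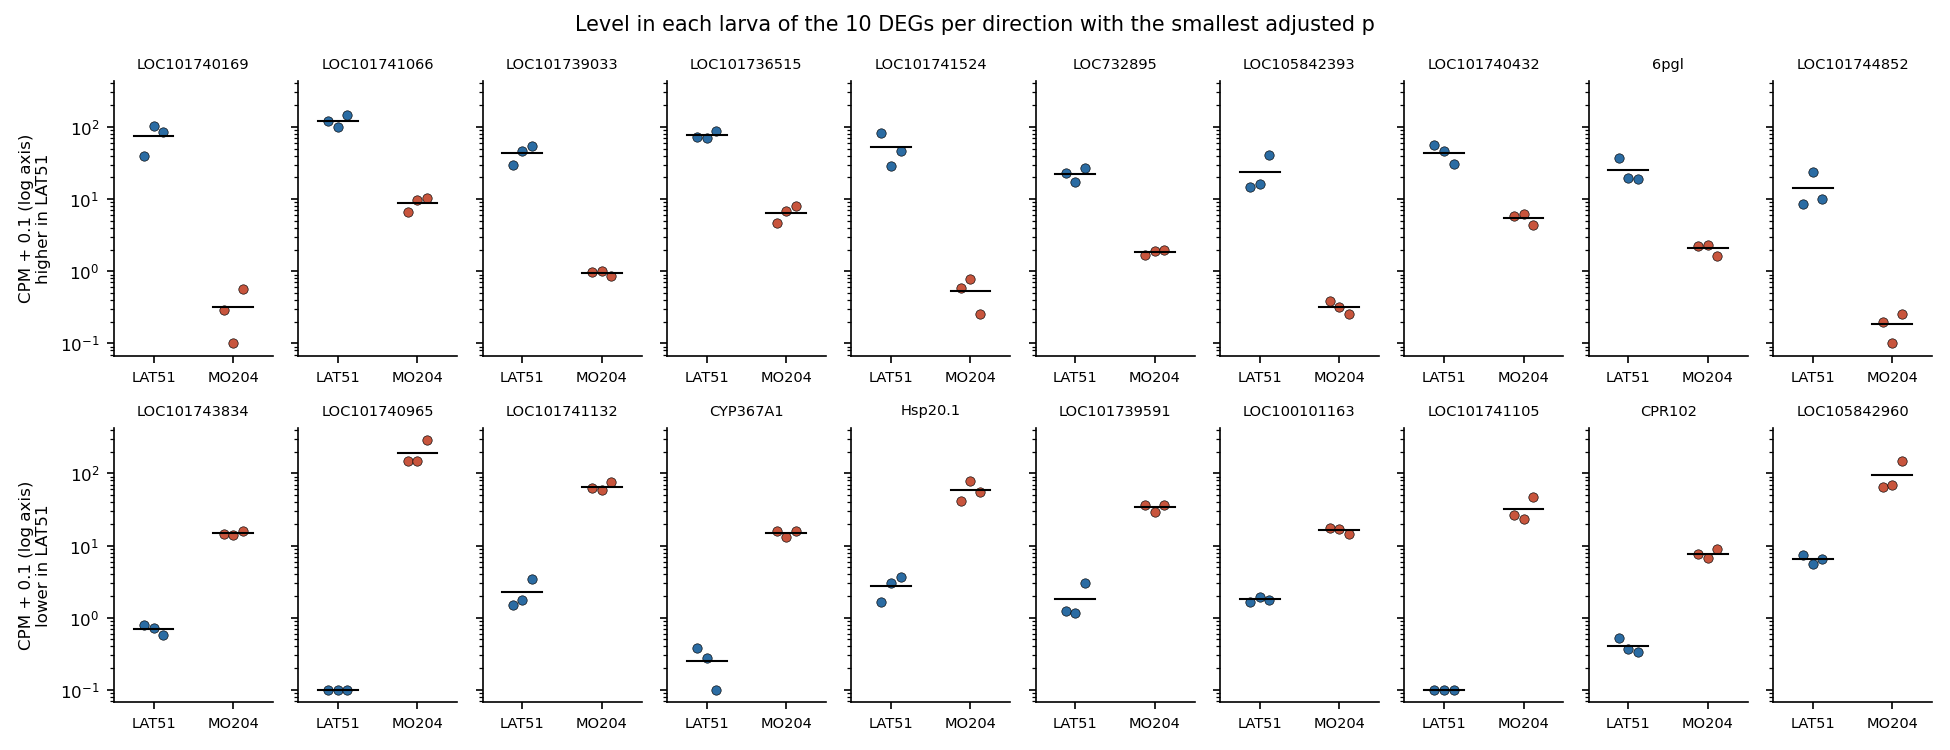
CPM plus 0.1 on a log axis in each larva for the 10 DEGs per direction with the smallest adjusted p, with LAT51 (blue) left of MO204 (red) and a bar at the mean of the 3 larvae. The 20 genes were chosen only among DEGs whose strains do not overlap, so their lack of overlap follows from the choice. LOC101740965 and LOC101741105 are at 0 counts in all 3 LAT51 larvae.

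Of the heat shock protein genes, 9 of 12 were tested, 0 rose and 1 fell, with a median log2FC of 0.05. The gene that fell was Hsp20.1, a small heat shock protein, with 1.55, 2.93 and 3.61 CPM in the LAT51 larvae, against 41.1, 79.1 and 54.3 CPM in the MO204 larvae (log2FC -4.45, SE 0.41, p_adj = 0.0026). Every LAT51 larva was more than 10-fold below every MO204 larva, and the call held with each library left out. Hsp23.7, another small heat shock protein, had 2.39, 3.29 and 3.61 CPM in the LAT51 larvae, against 6.51, 6.48 and 21.6 CPM in the MO204 larvae. The groups did not overlap, but MO204-4 was far above the rest and the gene was not called by edgeR (log2FC -1.90, SE 0.55, p_adj = 0.138), whereas DESeq2 called it (p_adj = 0.0829). It was not called by limma (p_adj = 0.165), and without MO204-4 its log2FC was -1.08. Hsp19.9 had 23.2, 13.3 and 20.2 CPM in the LAT51 larvae, against 11.4, 8.27 and 167 CPM in the MO204 larvae and overlapped (p_adj = 0.549). The genes Hsp70 and LOC733093, whose synonym is Hsp-70, had too few counts to be tested. Hsp70 had 1, 0 and 0 counts in the LAT51 larvae, against 0, 2 and 48 counts in the MO204 larvae, and LOC733093 had 2, 0 and 1 counts in the LAT51 larvae, against 4, 4 and 219 counts in the MO204 larvae. Nearly all of those counts were in MO204-4. Chaperones that cells make constantly were not called. Hsp90 had 1261, 1262 and 1290.3 CPM in the LAT51 larvae, against 1109, 752 and 1126 CPM in the MO204 larvae (log2FC 0.35, SE 0.25, p_adj = 0.654), with LAT51 a little above MO204 in every larva. The cognate Hsc70-4 had 4443, 3086 and 5207 CPM in the LAT51 larvae, against 2921, 4034 and 3763 CPM in the MO204 larvae (log2FC 0.25, SE 0.30, p_adj = 0.812), and the endoplasmic chaperone grp78, listed as HSP70, had 1542, 799 and 1046 CPM in the LAT51 larvae, against 1034, 860.3 and 1491 CPM in the MO204 larvae (log2FC 0.00, SE 0.33, p_adj = 0.9997). Of the DnaJ co-chaperones, which pass substrates to Hsp70, 23 were tested, none was called by edgeR, DESeq2 or limma, 0 had an unadjusted p under 0.05, and the log2FC ran between -0.72 and 0.60. Over all 7245 genes tested, 1024 had an unadjusted edgeR p under 0.05.

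The silk protein genes were all tested, 0 rose and 1 of 6 fell, with a median log2FC of -0.53. Ser3, a sericin of the anterior middle gland and of the outer silk layer, had 2.53, 4.08 and 13.7 CPM in the LAT51 larvae, against 56.2, 114 and 20.7 CPM in the MO204 larvae (log2FC -3.28, SE 0.78, p_adj = 0.075). LAT51-4 was the highest LAT51 larva and MO204-4 the lowest MO204 larva, and the groups came close without overlapping. The call was lost without LAT51-1, LAT51-2, MO204-1 or MO204-3, with p_adj between 0.142 and 0.292. The log2FC was -4.23 without LAT51-4 and -2.56 without MO204-3. The fibroin heavy chain gene FIBH had 50511, 48415 and 49388 CPM in the LAT51 larvae, against 61103, 118448 and 89817 CPM in the MO204 larvae. LAT51 was below MO204 in every larva, yet the difference was not called by edgeR (log2FC -0.86, SE 0.35, p_adj = 0.319). DESeq2 called it (p_adj = 0.0435), but limma did not (p_adj = 0.632). In the edgeR fits that leave out a library its p_adj was between 0.212 and 0.664. Fib-l, the light chain, had 16639, 20244 and 20234 CPM in the LAT51 larvae, against 20378, 25309.7 and 19743 CPM in the MO204 larvae, and P25 had 2813, 4078 and 2804 CPM in the LAT51 larvae, against 2357, 3563 and 1709 CPM in the MO204 larvae, and both overlapped. Another sericin gene, Ser2, had 98726, 51603 and 69854 CPM in the LAT51 larvae, against 34307, 44848 and 60074 CPM in the MO204 larvae (log2FC 0.66, SE 0.39, p_adj = 0.541), and LOC101740082, whose synonym is ser1, had 6628, 2452 and 16047 CPM in the LAT51 larvae, against 11378, 10667 and 31791 CPM in the MO204 larvae (log2FC -1.10, SE 0.70, p_adj = 0.591). Both overlapped, and in ser1 the larvae of each strain spread several-fold.

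Silk protein genes together took 15.3% ± 3.45 of the counts in LAT51 and 17.7% ± 2.81 in MO204 (SD, n = 3 each). The difference of -2.41 percentage points was within the spread of the larvae (two-sided exact permutation p = 0.5, where 3 against 3 cannot go below 0.1). Of the 6 tested regulators of silk genes none was called by edgeR, DESeq2 or limma, and 0 had an unadjusted p under 0.05. Of these, sage, a factor of silk gland identity, had 88.1, 62.9 and 71 CPM in the LAT51 larvae, against 56.9, 63.7 and 52.6 CPM in the MO204 larvae, and the coactivator MBF1 had 149, 187 and 138 CPM in the LAT51 larvae, against 171, 142 and 131 CPM in the MO204 larvae. Both overlapped, with a median log2FC of 0.16 over the 6 genes. Other genes with a high share of the counts were LOC119630857, LOC110386648 and LOC119630858. Their log2FC was -0.21, -0.20 and -0.29 and the strains overlapped in each, and since their counts ran side by side in every library, reads may be shared among them.

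Silk glands and haemolymph are rich in protease inhibitors, which guard silk and immune proteins. Of 36 serpins and other protease inhibitors, 17 were tested, 2 rose and 1 fell, with a median log2FC of -0.47. serpin-21 had 4.36, 9.06 and 6.74 CPM in the LAT51 larvae, against 0.972, 1.12 and 1.7 CPM in the MO204 larvae (log2FC 2.41, SE 0.46, p_adj = 0.0382). The cysteine protease inhibitor bcpi had 152, 197 and 231 CPM in the LAT51 larvae, against 71.2, 89.4 and 101 CPM in the MO204 larvae (log2FC 1.15, SE 0.25, p_adj = 0.0558). Both were above MO204 in every LAT51 larva, but the calls were weak: serpin-21 was lost without LAT51-2, MO204-1 or MO204-3, and bcpi without LAT51-2, LAT51-4, MO204-1 or MO204-3 (p_adj between 0.13 and 0.153 for serpin-21 and between 0.136 and 0.18 for bcpi). serpin-3 fell, with 1.12, 1.24 and 0.722 CPM in the LAT51 larvae, against 7.48, 4.47 and 11.9 CPM in the MO204 larvae (log2FC -2.89, SE 0.50, p_adj = 0.0258). Its call was lost without LAT51-2 (p_adj = 0.106). Among the serpins that were not called, serpin-22 had 2328, 2986 and 3053 CPM in the LAT51 larvae, against 1099, 840.4 and 2101 CPM in the MO204 larvae (p_adj = 0.231), with every LAT51 larva above every MO204 larva. serpin-18 had 1377, 1738 and 1683 CPM in the LAT51 larvae, against 3294, 458 and 7148 CPM in the MO204 larvae (p_adj = 0.596), with MO204-3 lowest and MO204-4 highest of all 6 larvae. A further inhibitor outside the list, LOC101738036, annotated as the trypsin inhibitor swm-1, had 0, 0 and 0 counts in the LAT51 larvae, against 146, 111 and 636 counts in the MO204 larvae. It was at least 97.2-fold lower in LAT51 (p_adj = 0.0229). In MO204 its CPM was 14.2, 24.8 and 98.1, and without MO204-4 the bound was 42.4-fold (p_adj = 0.00508).

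Cuticular proteins bind the chitin of the epidermis, the tracheae and the lining of the gland duct. Of 135 genes with the RR chitin-binding motif, 19 were tested, 0 rose and 3 fell, with a median log2FC of 0.07. The 3 lie together in the genome, with CPR102 next to CPR100 and CPR104 set 2 places away. CPR102 had 0.422, 0.266 and 0.241 CPM in the LAT51 larvae, against 7.48, 6.71 and 8.79 CPM in the MO204 larvae, at least 16.3-fold lower (p_adj = 0.0034). CPR100 had 0.422, 0.622 and 0.481 CPM in the LAT51 larvae, against 6.22, 14.1 and 10.2 CPM in the MO204 larvae (log2FC -4.23, SE 0.49, p_adj = 0.00626). CPR104 had 0.141, 0 and 0.481 CPM in the LAT51 larvae, against 5.15, 5.81 and 4.78 CPM in the MO204 larvae, at least 11.2-fold lower (p_adj = 0.0204). All 3 genes were below 1 CPM in each LAT51 larva, and the calls held with each library left out, although that on CPR102 was lost in a model of all 3 strains and that on CPR104 with a filter on total counts or with no filter. CPR90 had 13.5, 232 and 566 CPM in the LAT51 larvae, against 699, 536 and 237 CPM in the MO204 larvae and overlapped (p_adj = 0.805). Of 72 cuticular proteins without the motif, 9 were tested, 0 rose and 1 fell. The glycine-rich CPG18 had 1.12, 0.266 and 0 CPM in the LAT51 larvae, against 2.33, 6.93 and 21.1 CPM in the MO204 larvae (log2FC -4.31, SE 1.06, p_adj = 0.0815), with MO204-4 highest. Its call held only with MO204-1 left out, and was otherwise lost (p_adj between 0.128 and 0.311). Its log2FC was -5.65 without LAT51-1 and -3.16 without MO204-4. CPH43 had 602, 899 and 1049 CPM in the LAT51 larvae, against 1705, 1332 and 5252 CPM in the MO204 larvae without overlap and was not called (p_adj = 0.171).

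Detoxification genes changed singly and in both directions. Of 44 cytochrome P450 genes, monooxygenases of hormones and plant toxins, 9 were tested, 1 rose and 1 fell. CYP367A1 had 0.281, 0.178 and 0 CPM in the LAT51 larvae, against 16, 13 and 16 CPM in the MO204 larvae. No LAT51 library had more than 3 counts, so it was at least 31.9-fold lower (p_adj = 0.00207), also with each library left out. Cyp6ab5 had 4.78, 2.58 and 5.53 CPM in the LAT51 larvae, against 0, 0.447 and 0.154 CPM in the MO204 larvae, at least 9.05-fold higher (p_adj = 0.0313). Its call was lost without LAT51-1 (p_adj = 0.103). Of 20 glutathione S-transferases, which attach glutathione to toxins, 12 were tested, 1 rose and 1 fell. GSTz2, of the zeta class, had 5.62, 10.5 and 10.6 CPM in the LAT51 larvae, against 47.1, 39.3 and 44.6 CPM in the MO204 larvae (log2FC -2.30, SE 0.30, p_adj = 0.00788), a call that held with each library left out. GSTe5, of the epsilon class, had 4.22, 8.97 and 12.8 CPM in the LAT51 larvae, against 2.04, 0.671 and 2.004 CPM in the MO204 larvae (log2FC 2.38, SE 0.56, p_adj = 0.0741). It held only without LAT51-1 and was otherwise lost (p_adj between 0.111 and 0.228).

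Of 40 UDP-glucosyltransferases, which attach glucose to toxins and plant pigments, 11 were tested, 1 rose and 0 fell, with a median log2FC of 0.80 and 7 above 0. UGT40A1 had 11.2, 12.3 and 11.6 CPM in the LAT51 larvae, against 1.75, 4.69 and 3.85 CPM in the MO204 larvae (log2FC 1.80, SE 0.41, p_adj = 0.0682). Its call held only without MO204-4 and was otherwise lost (p_adj between 0.112 and 0.218). UGT48C1 had 2, 2 and 0 counts in the LAT51 larvae, against 631, 293 and 1 counts in the MO204 larvae. It was at 50 or more counts in only 2 of the 6 larvae, both of them MO204, and did not pass the filter for testing. Ugt2 had 1761, 2427 and 2494 CPM in the LAT51 larvae, against 2349, 2614 and 2615 CPM in the MO204 larvae and overlapped (p_adj = 0.844). Of the carboxylesterases, which cleave ester toxins, 7 were tested and none was called by edgeR (1 at an unadjusted p under 0.05). DESeq2 and limma each called ae25, which had 345, 277 and 347 CPM in the LAT51 larvae, against 214, 175 and 171 CPM in the MO204 larvae, without overlap (log2FC 0.79, SE 0.22, p_adj = 0.125).

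Juvenile hormone keeps the larva from metamorphosis and ecdysteroids trigger moulting. Of 18 juvenile hormone genes, 9 were tested, 2 rose and 0 fell, with a median log2FC of 0.29. Fps, a farnesyl diphosphate synthase of the pathway that leads to the hormone, had 102, 115 and 113 CPM in the LAT51 larvae, against 55.2, 60.6 and 54.6 CPM in the MO204 larvae (log2FC 0.95, SE 0.19, p_adj = 0.0407). The larvae of each strain were within a narrow range and far from the other strain. Cjhbp, a cytosolic protein that binds the hormone, had 37.8, 18.9 and 31.3 CPM in the LAT51 larvae, against 15.1, 10.3 and 12.2 CPM in the MO204 larvae (log2FC 1.22, SE 0.31, p_adj = 0.0968). Both calls were fragile: Fps was called only without LAT51-1 (p_adj between 0.101 and 0.147 without any other library), and Cjhbp in none of the 6 fits that leave out a library (p_adj 0.102 to 0.292). Epoxide hydrolases degrade the hormone. Jheh-lp2 had 255, 54.8 and 74.4 CPM in the LAT51 larvae, against 21.4, 24.8 and 49.3 CPM in the MO204 larvae (log2FC 2.01, SE 0.61, p_adj = 0.154), and Jheh2 had 14.9, 17.5 and 22.1 CPM in the LAT51 larvae, against 36.4, 34.6 and 119 CPM in the MO204 larvae (log2FC -1.80, SE 0.50, p_adj = 0.119). Neither overlapped and neither was called by edgeR, and they lay in opposite directions. DESeq2 called both, with p_adj = 0.0215 for Jheh-lp2 and p_adj = 0.0217 for Jheh2, and limma called neither (p_adj = 0.148 and 0.144). A single larva weighed heavily in each: without LAT51-1 the log2FC of Jheh-lp2 was 1.03, and without MO204-4 that of Jheh2 was -0.98. Of 14 ecdysteroid genes, 8 were tested, 1 rose and 0 fell. Hr3, a nuclear receptor that ecdysone induces, had 17.6, 22.9 and 10.1 CPM in the LAT51 larvae, against 2.04, 4.69 and 1.85 CPM in the MO204 larvae (log2FC 2.61, SE 0.48, p_adj = 0.0329). It was lost without LAT51-1, LAT51-2 or MO204-1 (p_adj between 0.103 and 0.141). The ecdysone receptor EcR had 4.92, 8.79 and 8.18 CPM in the LAT51 larvae, against 5.15, 8.49 and 8.63 CPM in the MO204 larvae and overlapped (p_adj = 0.998).

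Of 46 innate immunity genes, 10 were tested, 1 rose and 1 fell, with a median log2FC of -0.34. Defensin, an antimicrobial peptide, had 61.8, 126 and 121 CPM in the LAT51 larvae, against 17.4, 28.4 and 22.4 CPM in the MO204 larvae (log2FC 2.18, SE 0.33, p_adj = 0.0171). Every LAT51 larva was above every MO204 larva, and the call held with each library left out. BGRP1, which recognises fungal glucans, had 0.703, 0.355 and 0.481 CPM in the LAT51 larvae, against 1.94, 3.58 and 32.2 CPM in the MO204 larvae (log2FC -4.60, SE 1.18, p_adj = 0.0936). Most of its MO204 level was in MO204-4, without which the values were log2FC -2.39, p_adj = 0.12. It was called in only 1 of the 6 fits, that without MO204-1, and p_adj reached 0.328 without LAT51-2. Relish (Rel), a transcription factor of the immune response, had 31.8, 49.99 and 61.4 CPM in the LAT51 larvae, against 36.2, 23.2 and 17.7 CPM in the MO204 larvae and overlapped (p_adj = 0.289). Of 7 tested genes of oxidative defence, none was called by edgeR, DESeq2 or limma, and 1 had an unadjusted p under 0.05. SOD had 264, 286 and 198 CPM in the LAT51 larvae, against 238, 207 and 186 CPM in the MO204 larvae (p_adj = 0.756) and the peroxiredoxin Jafrac1 had 424, 206 and 193 CPM in the LAT51 larvae, against 294, 243 and 249 CPM in the MO204 larvae (p_adj = 0.967), both with overlap.

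DEGs with a gene symbol outside the lists were few, and those that follow were chosen after their values were seen. Cbp, the carotenoid-binding protein that carries yellow pigment into the silk gland, had 96.2, 45.6 and 218 CPM in the LAT51 larvae, against 882, 354 and 911 CPM in the MO204 larvae (log2FC -2.58, SE 0.61, p_adj = 0.0734). LAT51-4 was highest in LAT51 and MO204-3 lowest in MO204, and the groups did not overlap. The call held only without LAT51-4 or MO204-3, and p_adj was between 0.119 and 0.193 without another library. Without LAT51-4 the log2FC was -3.33. The kinase gene raf had 5.48, 3.996 and 6.26 CPM in the LAT51 larvae, against 0.194, 0.224 and 0.617 CPM in the MO204 larvae (log2FC 3.88, SE 0.56, p_adj = 0.0134), and its log2FC was 4.55 without MO204-4. Pbanr, the receptor for a neuropeptide that stimulates pheromone synthesis, had 12.1, 16 and 11.3 CPM in the LAT51 larvae, against 3.4, 4.69 and 2.78 CPM in the MO204 larvae (log2FC 1.87, SE 0.34, p_adj = 0.0313). Its call was lost without LAT51-2 or MO204-1 (p_adj between 0.109 and 0.139).

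Few genes of the machinery that makes and exports protein were called by any tool. All 81 cytosolic ribosomal protein genes were tested and none was called by edgeR, DESeq2 or limma (1 at an unadjusted p under 0.05), while 73 had a log2FC above 0, beside 49.8% of all genes tested. Their median log2FC was 0.21, and with plain library size scaling 71 lay above 0 with a median of 0.18. The summed level of this list was 208499, 286809 and 347896 CPM in the LAT51 larvae, against 191324, 271834 and 257601 CPM in the MO204 larvae. These sums overlapped, with LAT51-1 below MO204-3 and MO204-4, so the count of genes above 0 is no measure of the spread between larvae. RpL5 had 6709.7, 7265 and 10028 CPM in the LAT51 larvae, against 4648, 7599.6 and 5581 CPM in the MO204 larvae (log2FC 0.43, SE 0.31, p_adj = 0.657), and RpS3Ae had 5529, 5521 and 7164 CPM in the LAT51 larvae, against 3911, 7589 and 6652 CPM in the MO204 larvae (p_adj = 0.999). Of the 19 translation factors none was called by edgeR or limma and 1 by DESeq2 (1 at an unadjusted p under 0.05), and 15 were above 0, with a median of 0.18. Among them the elongation factor EF1a had 10562, 9474 and 12636 CPM in the LAT51 larvae, against 7303, 10144 and 9801 CPM in the MO204 larvae and overlapped (p_adj = 0.795). Of the 19 tested genes of the secretory pathway none was called by edgeR or limma and 1 by DESeq2 (1 at an unadjusted p under 0.05), with a median of -0.11. Pdi, which forms disulfide bonds in secreted proteins, had 1936, 2347 and 1404 CPM in the LAT51 larvae, against 2838, 3621 and 2155 CPM in the MO204 larvae (log2FC -0.60, SE 0.31, p_adj = 0.475). Sec61alpha, the channel into the endoplasmic reticulum, had 1374, 1257 and 1339 CPM in the LAT51 larvae, against 1783, 1877 and 2100.4 CPM in the MO204 larvae (log2FC -0.54, SE 0.23, p_adj = 0.339), with LAT51 below MO204 in every larva, and was the gene that DESeq2 called.

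**Figure D3:**
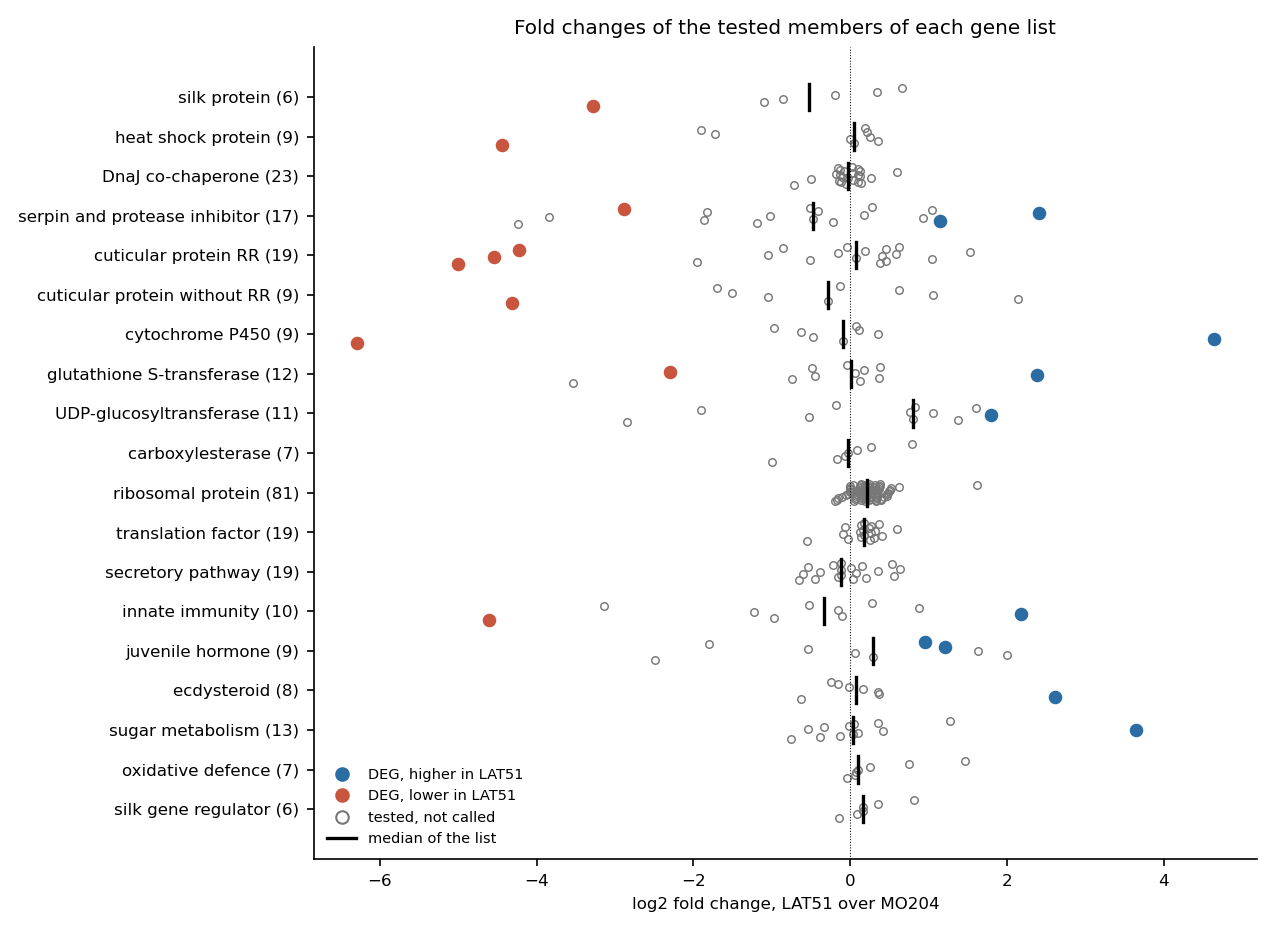
Log2FC of LAT51 over MO204 (horizontal axis) of every tested member of the gene lists with at least 5 tested genes, the number tested in brackets. The marker lists of other tissues, such as muscle and fat body, are not shown. Filled points are DEGs (blue up, red down), open points were not called, and bars mark the list medians. All lists shown have 0 to 3 DEGs in a direction, and the ribosomal proteins lie slightly to the right of 0 with a median of 0.21.

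Of the markers of tissues that lie against the gland, several muscle genes and a fat body gene passed the test, and both lists varied widely between larvae. Of the 8 tested muscle genes 0 rose and 4 fell, with a median log2FC of -3.52. The summed level of the muscle list was 103 to 128 CPM in LAT51 and 168 to 1456 CPM in MO204. MLC-2, a myosin light chain, had 1.69, 0.977 and 1.2 CPM in the LAT51 larvae, against 13.4, 447 and 22 CPM in the MO204 larvae (log2FC -6.96, SE 1.51, p_adj = 0.0587). Muscle actin A1 had 4.07, 0.888 and 0.963 CPM in the LAT51 larvae, against 23, 545 and 22.4 CPM in the MO204 larvae (log2FC -6.61, SE 1.53, p_adj = 0.0691), and troponin I (TpnI) had 2.11, 0.444 and 0.722 CPM in the LAT51 larvae, against 9.43, 203 and 10.02 CPM in the MO204 larvae (log2FC -6.08, SE 1.46, p_adj = 0.0753). MO204-3 was far above the other MO204 larvae in each of these genes. Mf had 0.281, 0.266 and 0.722 CPM in the LAT51 larvae, against 5.15, 121 and 5.24 CPM in the MO204 larvae, at least 93.1-fold lower in LAT51 (p_adj = 0.0713). Without MO204-3 the log2FC was -3.78 for MLC-2, -3.51 for A1, -3.16 for TpnI, and the bound for Mf was 11.3-fold, and all 4 were still called (p_adj 0.0168 to 0.0853). All 4 calls were lost without any 1 of the LAT51 larvae (p_adj between 0.156 and 0.292) and in a model of all 3 strains. Without LAT51-1 the log2FC was -7.71 for A1 and -7.05 for TpnI. DESeq2 gave these genes no adjusted p. LOC100174848 had the same profile, with 0.281, 0.178 and 0.722 CPM in the LAT51 larvae, against 3.6, 69.96 and 5.4 CPM in the MO204 larvae, and was at least 56-fold lower (p_adj = 0.0682), or 9.79-fold without MO204-3. Its call too was lost without any 1 LAT51 larva. Tropomyosin Tm had 56.3, 63.1 and 30.1 CPM in the LAT51 larvae, against 58.2, 61.2 and 26.4 CPM in the MO204 larvae and overlapped (p_adj = 0.986), as did the other 3 muscle genes that were not called. What part muscle on the glands has in these DEGs was not tested.

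Of the 12 tested genes of fat body and haemolymph 0 rose and 1 fell, with a median log2FC of -2.96. The list summed to 38 to 377 CPM in LAT51 and 169 to 1779 CPM in MO204, so the ranges overlapped, with LAT51-1 highest in LAT51 and MO204-3 and MO204-4 highest of all. Lp-c12, a 30K lipoprotein of the haemolymph, had 7.03, 3.91 and 0.963 CPM in the LAT51 larvae, against 23.6, 34 and 128 CPM in the MO204 larvae (log2FC -3.91, SE 0.82, p_adj = 0.0517). Its call was lost without any 1 LAT51 larva (p_adj between 0.114 and 0.217). The log2FC was -2.81 without MO204-4 and -4.52 without LAT51-1. The storage protein Sp1, which female larvae are known to make in greater amounts, had 0.422, 16.4 and 0.241 CPM in the LAT51 larvae, against 1.55, 210.1 and 1.7 CPM in the MO204 larvae. It was high in LAT51-2 and MO204-3 only, and the labels give no sex. Of the haemocyte markers 2 were tested and none was called by edgeR, DESeq2 or limma (0 at an unadjusted p under 0.05), PPO1 with 4.36, 10.8 and 6.74 CPM in the LAT51 larvae, against 10.01, 14.8 and 9.87 CPM in the MO204 larvae. The nerve gene Elav had 71, 44.8 and 33.4 CPM in the LAT51 larvae, against 82.1, 91.2 and 34.7 CPM in the MO204 larvae. Both overlapped. What part fat body or haemolymph has in the DEGs was not tested.

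**Figure D4:**
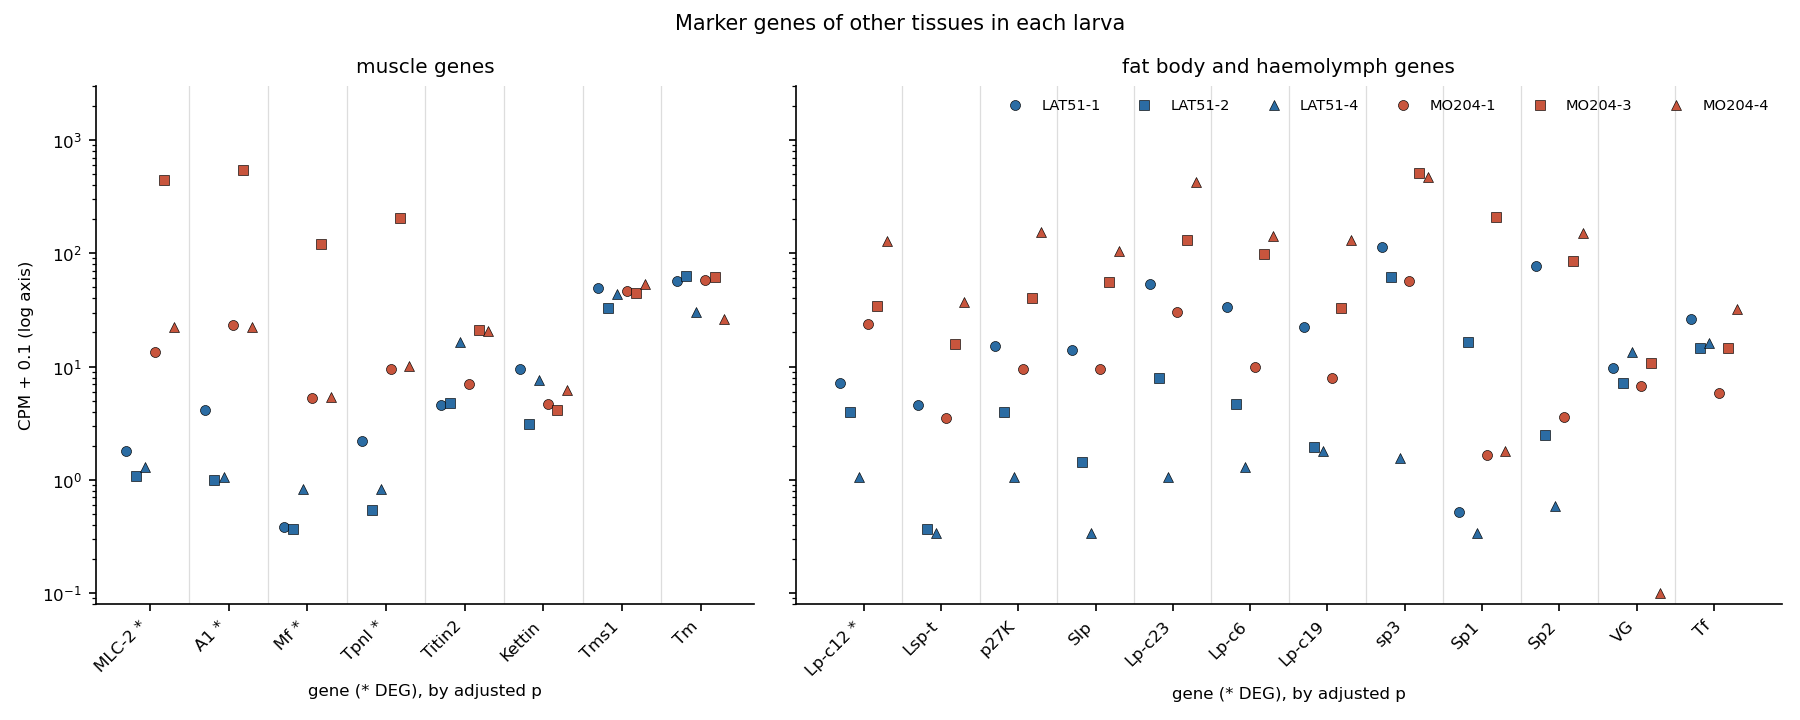
CPM plus 0.1 on a log axis of each tested muscle gene (left) and fat body gene (right) in each larva, LAT51 in blue and MO204 in red, with symbols for the larva. The 4 starred muscle DEGs are highest in MO204-3, where A1 reaches 545 CPM, and most fat body genes span a wide range within each strain.

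DEGs were mostly scattered along the genome. A gene table of the newer assembly ASM3026992v2 placed 313 of the 351 DEGs in order. Among 3556 pairs of tested genes that were direct neighbours, 14 were pairs of DEGs, which held 27 DEGs. In 214 others 1 gene was a DEG and its neighbour was not. Over all genes tested 4.84% were DEGs, and whether 14 pairs exceed a random scatter was not tested. Of the 14 pairs 9 changed in the same direction and 5 in opposite directions. Among the 9 are LOC119629818 with LOC119629803, which may share reads, and LOC119629818 with LOC110385229. The same-direction pairs included the myrosinases, the choline dehydrogenase-like pair and CPR102 with CPR100. An opposite pair was GSTz2, lower in LAT51, with LOC101736673, which had 31.2, 39.9 and 133 CPM in the LAT51 larvae, against 5.15, 8.72 and 4.32 CPM in the MO204 larvae (log2FC 3.50, SE 0.61, p_adj = 0.0272). LAT51-4 was highest, with a log2FC of 2.57 without it, and the call was lost without MO204-1 (p_adj = 0.101).

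Some genes were present in part of a strain. To find them, after the values were seen, genes were taken whose libraries fell into a high set of at least 50 counts and a low set at least 20-fold lower in CPM, counting low values as no less than 0.4 CPM. There were 52 besides those high in MO204-4 alone. In 8 of them the high set was exactly the 3 LAT51 larvae and in 5 exactly the 3 MO204 larvae. These 13 were all DEGs, but they were picked for such a gap in the same libraries, so this is no separate support. The largest other set, apart from the 11 genes high in MO204-3 alone (8 of them DEGs), was 6 genes high in LAT51-4 and in all 3 MO204 larvae. LOC101737234 had 2, 1 and 5540 counts in the LAT51 larvae, against 12200, 5154 and 21440 counts in the MO204 larvae. LOC101746934 had 0, 1 and 2611 counts in the LAT51 larvae, against 5190, 2172 and 6757 counts in the MO204 larvae, and LOC119628394 had 0, 1 and 2531 counts in the LAT51 larvae, against 5064, 2156 and 6652 counts in the MO204 larvae. LOC101746934 and LOC119628394 had nearly the same count in every library. Reads may be shared between them, so they may not be independent genes of the set, and sums over the set may hold such reads more than once. The 6 genes together had 5 and 6 counts in LAT51-1 and LAT51-2 and 13107 in LAT51-4, against 26968, 11645 and 39997 counts in MO204-1, MO204-3 and MO204-4. LOC101744052, LOC101744069 and LOC101746795 completed the set. The 6 genes lie within 8 places of the gene order, and the gene between the first of them and the next, LOC101747066, had 38, 19 and 11 counts in the LAT51 larvae, against 40, 30 and 75 counts in the MO204 larvae, with no such gap. With LAT51-4 as high as MO204, none of the 6 was called by edgeR or limma (0 by edgeR at an unadjusted p under 0.05), DESeq2 gave an adjusted p for 2 of them and called neither, and LOC101737234 had a log2FC of -2.08 (p_adj = 0.791). LOC101747201, just before the set in that order, was a DEG in the other direction, with 42, 58 and 49 counts in the LAT51 larvae, against 1, 1 and 1 counts in the MO204 larvae, at least 16-fold higher in LAT51 (p_adj = 0.0059).

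**Figure D5:**
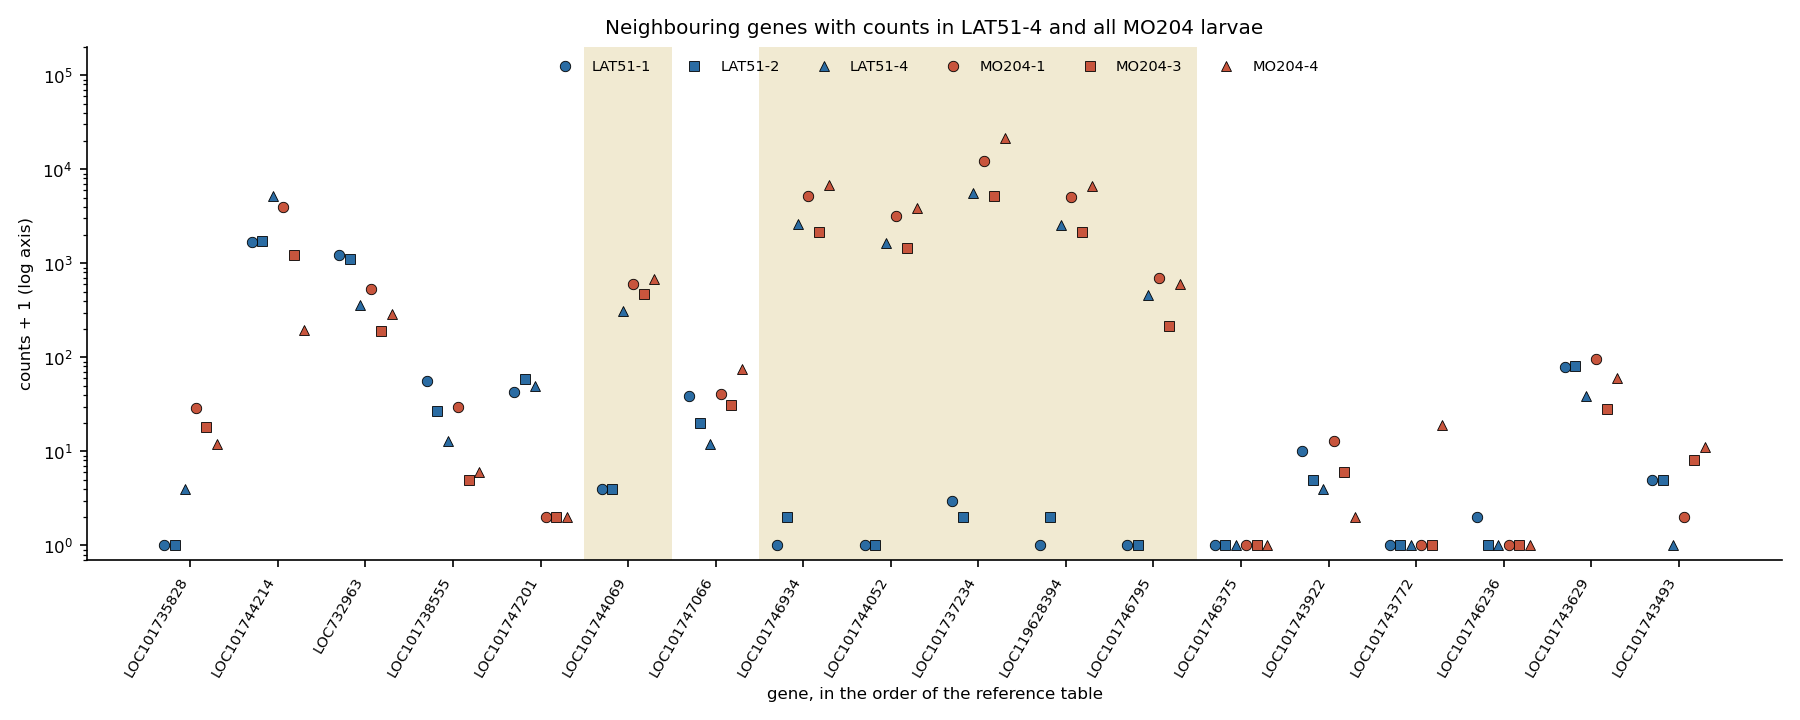
Counts plus 1 on a log axis of neighbouring genes in the order of the gene table, LAT51 larvae in blue and MO204 larvae in red. In the 6 shaded genes LAT51-1 and LAT51-2 are at 0 to 3 counts while LAT51-4 and the 3 MO204 larvae are at 216 to 21440 counts, whereas LOC101747201 before them and LOC101743922 after them show no such split.

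Among the genes that the study names are 7 uncharacterized loci whose counts were too low in most libraries to be tested. All were led by MO204-4, with LOC101740400 at 124 CPM there and LOC101735788, the lowest, at 20.8 CPM. No other larva passed 3 CPM in any of the 7. Of the genes that the study names, which it chose on these samples, 26 were found in the count table by ID or symbol, and those it names by protein alone were not matched. Of the 26, 18 were tested and 15 were DEGs here.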

How the data were processed

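RNA of 6 whole silk glands had been made into TruSeq Stranded mRNA libraries and sequenced as paired ends on a NextSeq 500. The authors trimmed the reads (with fastp 0.20.0 and Trimmomatic 0.39), aligned them with HISAT2 2.1.0 and deposited raw counts per gene from featureCounts 1.4.6-p5. They also deposited log2 values made with DESeq2 1.30.1, used here in 1 alternative. The strand setting of the counting is not given in the sources used here, so reads of overlapping genes on opposite strands may not be told apart.

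Counts of the 3 LAT51 and 3 MO204 libraries were scaled by TMM (factors between 0.920 and 1.12), filtered with filterByExpr and tested with the quasi-likelihood F test of edgeR 4.0.16 in R 4.3.3. P-values were adjusted by Benjamini-Hochberg over all 7245 genes tested, a DEG had an adjusted p under 0.1, and the SE is the log2FC divided by the square root of F. Each library is 1 larva, and the sources used here do not say whether larvae of a strain came from separate broods, so p-values measure the spread between these larvae. CPM is not scaled by gene length, so an order of genes by CPM, used only to choose genes to name, is not an order of transcript levels. The fitting steps were first tested on simulated data.

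The members, the gene lists and the tests were chosen with earlier results of these data known. Genes were named by rule: the 10 per direction with the smallest adjusted p among DEGs with a log2FC past 1 and no overlap, the 5 per direction of highest CPM among those with at most 3 counts in every library of the other strain, the DEGs of each list or, for a list with none, its 2 members of highest CPM, the genes that the study names by ID or symbol, and the 5 genes with the highest share of counts. Members of lists of up to 15 tested genes could also be named. Lists were matched by symbol, or by synonym for bare locus IDs, in a gene table of assembly ASM3026992v2 that matched 14506 of 16674 IDs. It has no product names, so planned lists that needed them (other myrosinases, dehydrogenases, zinc fingers, transposons, sugar transporters, serine proteases, ion channels) were not built. Genes without a symbol carry the study's annotation where it names them.

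Alternatives were DESeq2 size factors, plain library sizes, TMM without the 10 genes with the highest share of counts, a minimum of 10 counts in total, no filter, DESeq2 1.42.0, limma 3.58.1 on the deposited log2 values, a model of all 3 strains, a replicate block, an adjusted p under 0.05, and leaving out each library. Replicate numbers 1 and 4 occur in both strains, 2 only in LAT51 and 3 only in MO204. Under the block the strain effect therefore rests on the larvae numbered 1 and 4. The deviations of the same-numbered larvae correlated at -0.0226 and 0.249, and those of larvae with different numbers between -0.227 and 0.165. With 3 larvae a strain these values cannot decide on a pairing. Each library is 1 larva, and the numbers were not taken as pairs.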

Additional observations from a re-analysis of the deposited data

How the results depend on the processing

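All 351 DEGs kept their direction in every alternative that gave them a value, and 77 (40 up, 37 down) were called in all of them. Their number was 121 (66 up, 55 down) among 10429 genes kept by a filter on total counts and 132 (69 up, 63 down) with no filter, both with more genes tested, 172 (86 up, 86 down) at an adjusted p under 0.05, 212 (92 up, 120 down) with a replicate block, 234 (115 up, 119 down) in the model of 3 strains, and 523 (255 up, 268 down) with DESeq2. It lay between 124 and 336 without a library (72 to 170 up, 52 to 166 down). Other scalings gave 315 to 357 and limma 337. Of the named genes 48 were called, 31 under either filter, and 31 to 43 without a library. Both filters lost A1, BGRP1, bcpi, Cjhbp, CPG18, CPR104, Cyp6ab5, GSTe5, LOC100174848, Lp-c12, Mf, MLC-2, Ser3, serpin-21, TpnI and UGT40A1, the total filter also Hr3 and no filter also serpin-3. Of the list members 25 were called, 9 under either filter, 38 with DESeq2, 13 in the model of 3 strains, and 9 to 22 without a library. Where no construction is named, the cause was not tested.

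Of the 74 named genes tested, whose values were followed through the alternatives, 7 changed the sign of their log2FC, and none of the 7 was called by edgeR. DnaJ-1 lay between -0.30 and 0.15 without a library, RpS3Ae between -0.23 and 0.20 (-0.00731 with library sizes), Jafrac1 between -0.39 and 0.27 (-0.0014 with limma) and MBF1 between -0.043 and 0.21 (-0.061 with a replicate block). LOC119630857 lay between -0.60 and 0.078, LOC110386648 between -0.60 and 0.089, and LOC119630858 between -0.70 and 0.046. With 3 larvae a strain and a depth of 4527847 counts in the shallowest library, differences in genes of low level may have gone undetected, and 550 genes with 50 or more counts in a library were not tested, 516 of them with such counts in MO204-4 alone.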
